A study of Mus musculus with 12 samples.

Results

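The ephrin, semaphorin, netrin and Slit guidance genes are the ligands and receptors by which cells attract, repel and sort from one another. The rule takes them by gene symbol and uses no measured value: ephrins and Eph receptors, semaphorins of classes 3 to 7, plexins, neuropilins, Slits, Robos, netrins, Unc5 receptors and Dcc. The rule found 68 genes in 17 families among the 54446 genes of the table. Of these, 56 reached 1 TPM (a transcript's share of the library's RNA molecules, corrected for length) in at least 3 of the 12 libraries and were tested. The other 12 stayed under 1 TPM in every library and are given no fold change: Dcc, Epha5, Epha6, Epha8, Epha10, Ntn5, Plxnb3, Robo3, Sema3d, Sema3g, Unc5a and Unc5d.

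The libraries came from the E14 line of mouse embryonic stem cells and fall into 4 groups of 3. The mESC group was undifferentiated. The T+, SOX17+/T+ (double-positive) and SOX17+ groups were sorted after differentiation as positive for T (the T-box factor Brachyury, made in the primitive streak and early mesoderm), for SOX17 (a SOX family factor made in endoderm), or for both. Stem cells had been kept with serum and the cytokine LIF on gelatin and irradiated embryonic fibroblasts, no sort is named for the mESC group, and the sources used here do not give the length and factors of the differentiation. Separate cultures are not stated for the replicates. The p-values therefore cover only how far these libraries spread, which may be technical. In such bulk libraries, fewer cells expressing a gene and less RNA per cell cannot be told apart.

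Ephrins are membrane-bound ligands, A-type anchored by a lipid and B-type spanning the membrane, and signal to EphA and EphB receptor kinases on the neighbouring cell and back into the cell that carries them. Semaphorins bind plexins, which the secreted class 3 members reach mostly through neuropilins. Slits act through Robo receptors and netrins through Dcc, neogenin and Unc5 receptors. All 4 systems are best known from axons, and they also act in vessels and in the embryo, where Eph signalling keeps cell populations apart.

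The sort genes followed the labels. T was at 0.65, 0.618 and 0.673 TPM in mESC, 132, 92.1 and 158 in T+, 40.4, 31.7 and 61.5 in SOX17+/T+ and 2.27, 1.86 and 2.84 in SOX17+, and Sox17 at 0.798, 0.484 and 0.632 TPM in mESC, 7.96, 9.99 and 12.9 in T+, 148, 146 and 123 in SOX17+/T+ and 244, 211 and 235 in SOX17+. The summed TPM of 6 pluripotency genes was 3326 to 3420 in mESC and 136 or less in the sorted libraries, and that of 6 streak and mesoderm genes was 925.9 to 995.6 in T+, 477.6 to 565.8 in SOX17+/T+ and still 255 to 285.4 in SOX17+, mostly Hand1. The sum of 6 endoderm genes was highest in SOX17+, at 1309 to 1407, mostly Krt18 and Epcam beside Sox17. Within that list Cer1 and Gsc went the other way, with -2.05 ± 0.67 (adjusted p = 0.04) and -1.09 ± 0.22 (adjusted p = 0.0022) in SOX17+ against SOX17+/T+. Summed TPM over 10 fibroblast genes was 2359 to 2971 in mESC, with all 10 at or above 1 TPM and Acta2 and Tagln the most abundant, and 49.3 to 85.3 in the sorted libraries, where Fap was listed at 0 in each group. Over 8 neural genes the sum was 130.5 to 135.3 TPM in mESC, mostly Tubb3, and 3.07 to 7.58 in the sorted libraries. Of that list, Pou3f2 and Neurog2 stood higher in T+ than in mESC, at under 1 TPM in every library. Over 5 blood genes the sum was 2.72 to 19.8 TPM in mESC, T+ and SOX17+/T+. In SOX17+ it was 87.8 to 218.9 TPM, mostly Hbb-bh1 and Hba-x. Runx1 of that list was highest in mESC, at 6.41 ± 0.783 TPM against 4.41 ± 0.833 in SOX17+ (SD, n = 3). The sum of 8 endothelial genes was 65.4 to 74.3 TPM in the first 3 groups and 101.8 to 109.6 in SOX17+, but its members moved in different directions. Cdh5 was at 0.346, 0.24 and 0.255 TPM in mESC, 0.505, 0.78 and 0.645 in T+, 5.06, 5.55 and 4.37 in SOX17+/T+ and 15.8, 17.1 and 13.6 in SOX17+, and Tie1 likewise stood lowest in mESC and highest in SOX17+, with 1.80 ± 0.12 (adjusted p = 1.9e-07) in SOX17+/T+ against T+. Pecam1 was at 30.3 ± 0.423 TPM in mESC, 2.41 ± 0.29 in T+ and 10.2 ± 0.776 in SOX17+ (SD, n = 3). Mitochondrial genes held 4.01% to 4.34% of TPM in mESC and 5.71% to 6.93% in the sorted libraries. The part of these other cell types and of this share in the differences reported here was not tested.

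Most guidance genes that were tested stood higher in the sorted groups than in mESC, where most changed genes of the table stood lower. In T+, 38 of 56 were called higher (67.9%) and 15 lower, by limma on log2(TPM + 1) at an adjusted p under 0.05, against 34.5% of all tested genes higher and 49.5% lower. The double-positive libraries gave 37 higher and 14 lower against 34.9% and 50.3%, and SOX17+ gave 36 and 17 against 35.4% and 50%. The median log2 fold change of the tested members was 0.86, 0.96 and 0.75 in these comparisons, while that of all tested genes was -0.17, -0.19 and -0.18. Together the 68 genes held 542 to 563 TPM in the mESC libraries, 1028 to 1050 in T+, 941 to 989 in SOX17+/T+ and 864 to 941 in SOX17+. The 3 comparisons share the mESC libraries. Quantile normalization moved the median of all genes to 0.07, 0.06 and 0.05 and the share of higher calls among all called genes from 41.0%, 40.9% and 41.5% to 53.4%, 53.2% and 52.4%. With it the members were 41, 39 and 39 higher and 13, 11 and 15 lower.

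**Figure D1:**
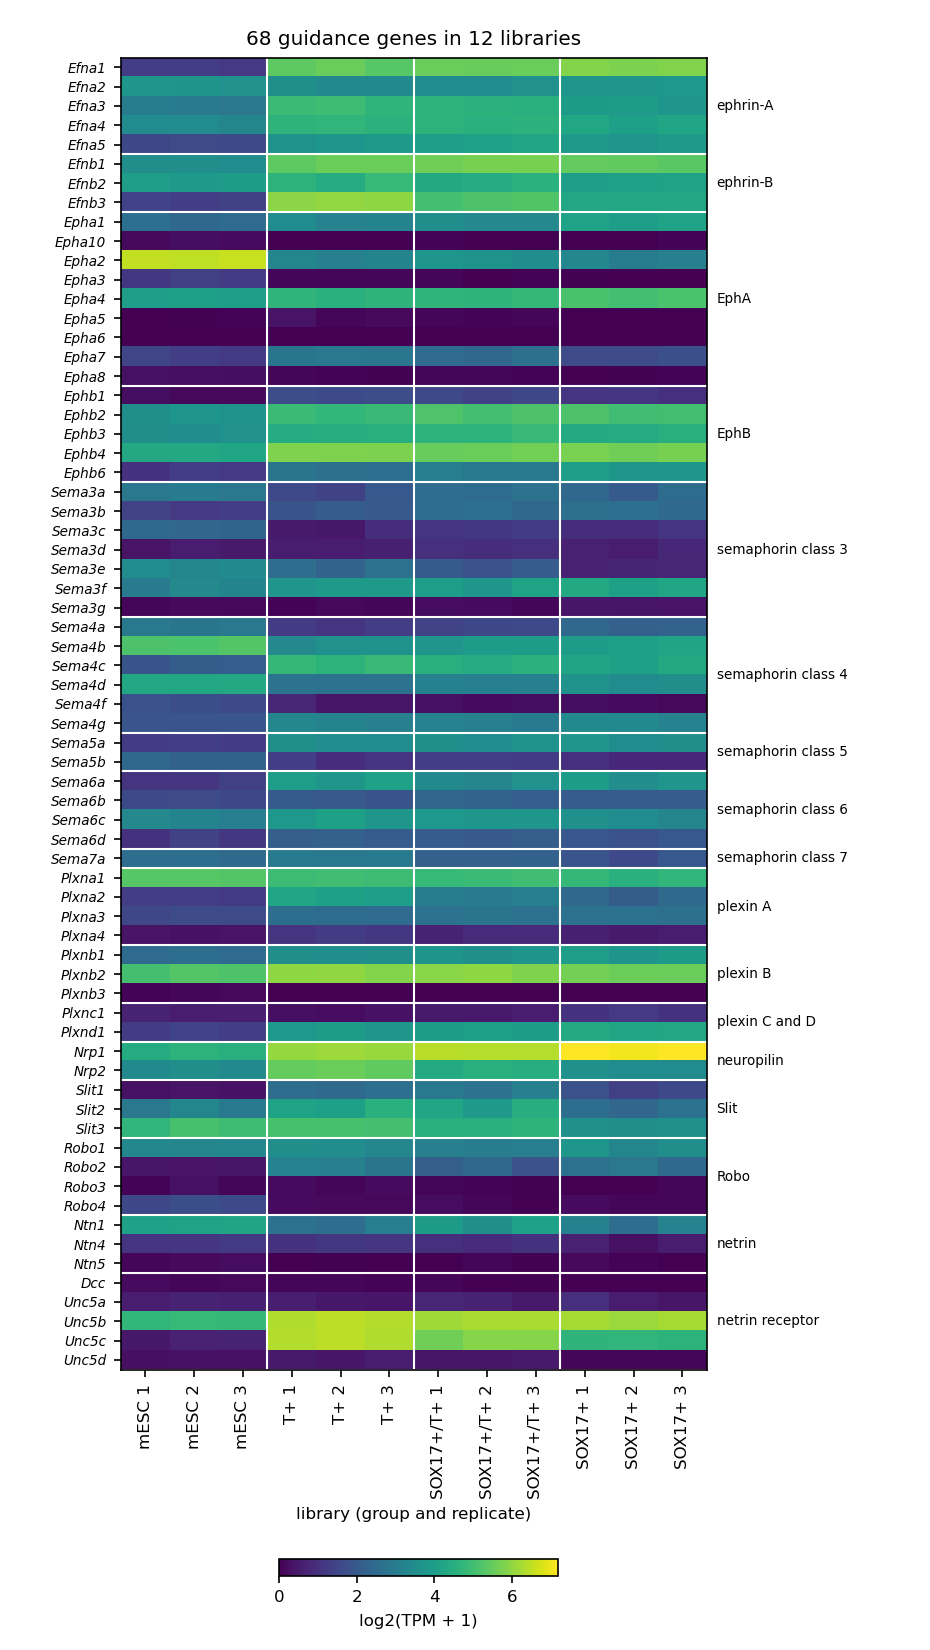
Level of each of the 68 guidance genes (rows, by family) in each of the 12 libraries (columns), as log2(TPM + 1) from dark (0) to yellow (highest). Unc5c, Efnb3 and Efna1 are dark in the 3 mESC columns and bright in the sorted ones, Epha2 shows the opposite, and Nrp1 is brightest in SOX17+.

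Against mESC, 34 members (60.7% of those tested) were called higher in all 3 sorted groups, a pattern of 27.9% of all tested genes. Another 11 (19.6%) were called lower in all 3, a pattern of 43.3%. The 11 were Epha2, Epha3, Plxna1, Robo4, Sema3c, Sema3e, Sema4a, Sema4b, Sema4d, Sema4f and Sema5b. Epha3, Robo4 and Sema4f reached 1 TPM only in mESC, so they entered the test through the group where they are highest. Among the 34 were all 5 EphB receptors, all 4 class 6 semaphorins, both tested plexins of type B and both tested Unc5 receptors. Sema6c was the least firm of them: its rise in SOX17+, 0.23 ± 0.10 (adjusted p = 0.047), was lost without mESC replicate 2 (adjusted p = 0.077) or 3 (0.19), SOX17+ replicate 1 (0.19) or 2 (0.1), T+ replicate 1 (0.053) or SOX17+/T+ replicate 1, 2 or 3 (0.057, 0.056 and 0.055). That call was also lost with no filter on low values (0.092) and with only the groups compared (0.064).

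Family sums of TPM differed between the groups by different amounts. The 5 ephrin-A genes summed to 31.9 ± 1.78 TPM (mean ± SD, n = 3) in mESC and to between 112.9 and 119.1 in the sorted groups. The 3 ephrin-B genes stood at 26.7 ± 0.72 in mESC, 131 ± 5.23 in T+, 106 ± 5.86 in SOX17+/T+ and 76.6 ± 0.894 in SOX17+. EphA receptors summed to 116 ± 2.3 TPM in mESC and 47.7 to 59.9 in the sorted groups, and EphB receptors to 42.8 ± 0.857 in mESC and between 111.3 and 119.4. Thus the EphA sum lay above the EphB sum in each mESC library and below it in each sorted library. Epha2 held 79.6% of the EphA sum in mESC. It and Epha3 were called lower in each sorted group than in mESC, while Epha1, Epha4 and Epha7 were called higher. Netrin receptors showed the largest difference in TPM, from 28.1 ± 0.821 TPM in mESC to 166 ± 8.41 in T+. Sums carry no test.

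**Figure D2:**
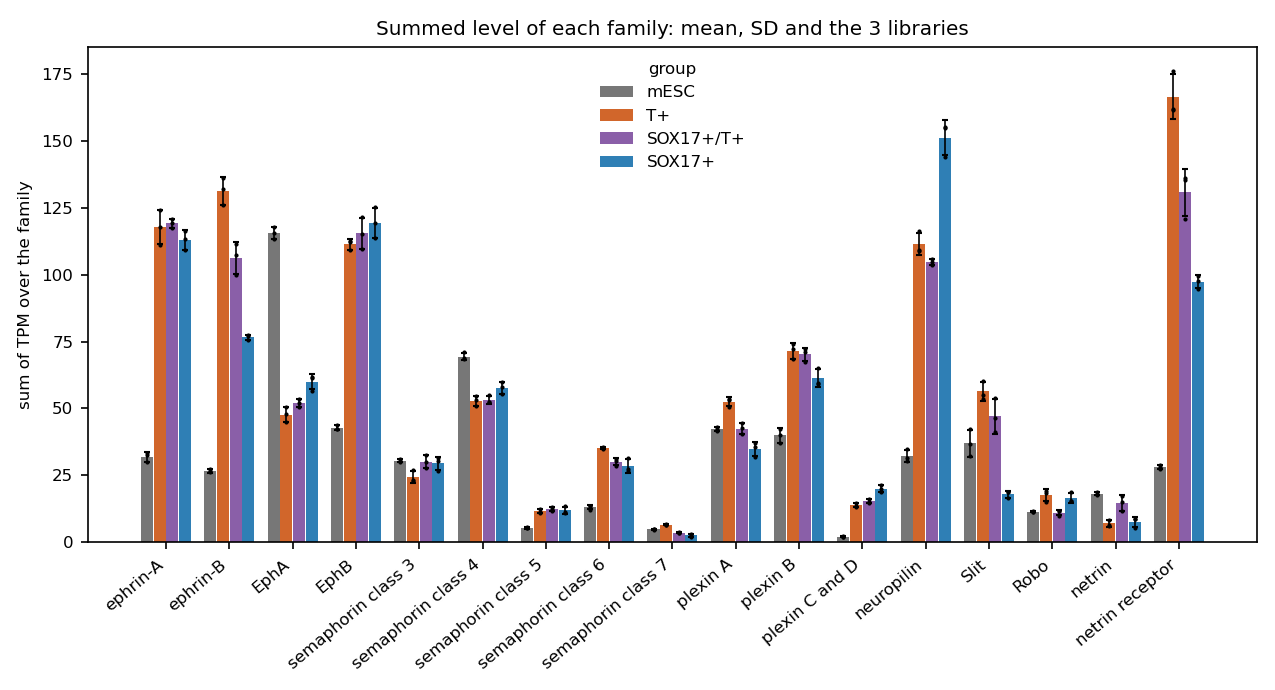
Summed TPM of each family (bars, mean of 3 libraries; whiskers, SD; dots, libraries) in the 4 groups. The bars of ephrins, EphB, neuropilins and netrin receptors are taller in the sorted groups than in mESC, those of EphA are shorter, and the Slit sum is lowest in SOX17+ at 18 TPM.

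Among the ephrin-A ligands, Efna1, a ligand of EphA receptors known from vessels and epithelia, changed most. It was at 1.47, 1.45 and 1.28 TPM in mESC, 41.3, 46.1 and 39.2 in T+, 45.5, 44.6 and 46.1 in SOX17+/T+ and 57.2, 54.2 and 55.9 in SOX17+. The mESC libraries lay far below all others, T+ and SOX17+/T+ overlapped, and SOX17+ lay above both. The log2 fold change was 4.17 ± 0.06 (adjusted p = 2.3e-15) in T+ against mESC, 4.56 ± 0.06 (adjusted p = 1.1e-15) in SOX17+ against mESC and 0.40 ± 0.06 (adjusted p = 8.0e-05) in SOX17+ against T+. Its share of the ephrin-A sum was 4.39% in mESC and 49.4% in SOX17+.

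Efna3 and Efna4 lie next to Efna1 on chromosome 3 (GRCm38, all on the minus strand), within 89271733 to 89338028 and with gaps of 32756 and 10424 bases between neighbours. Efna3 was at 7.04, 6.87 and 6.26 TPM in mESC, 28.8, 29.9 and 25.1 in T+, 24, 23.8 and 21.9 in SOX17+/T+ and 14.2, 14.3 and 12.7 in SOX17+, and the 4 groups did not overlap. Efna4 was at 10.2, 10.1 and 8.83 TPM in mESC, 24.6, 25.5 and 23.8 in T+, 24, 22.6 and 23.5 in SOX17+/T+ and 18.4, 15.8 and 17.7 in SOX17+, with T+ and SOX17+/T+ overlapping. All 3 neighbours were called higher in each sorted group than in mESC, for Efna3 by 1.90 ± 0.07 and for Efna4 by 1.27 ± 0.07 on the log2 scale in T+. Between the sorted groups they parted: in SOX17+ against T+, Efna1 was higher by the value above, Efna3 changed by -0.97 ± 0.07 (adjusted p = 1.4e-07) and Efna4 by -0.49 ± 0.07 (adjusted p = 3.2e-05). The RefSeq promoter windows (250 bases before to 50 after a start site, GRCm38.p6, each the window nearest to the gene start in the table) are shown because these neighbours parted between the groups sorted on a T-box and a SOX factor. Capitals mark GGTGTG or its reverse complement CACACC, a core that T-box factors bind, and ACAAT or ATTGT, a core that SOX factors bind. Efna1 (chr3:89280902-89281201, minus strand) holds CACACC at position -13 from the start site, Efna3 (chr3:89322890-89323189, minus) ATTGT at -9, and Efna4 (chr3:89337979-89338278, minus) CACACC at -37. A further Efna1 window, chr3:89279596-89279895, and a further Efna3 window, chr3:89321719-89322018, each hold 1 T-box match and no SOX match. Whether these letters bear on the levels was not tested.
Efna1: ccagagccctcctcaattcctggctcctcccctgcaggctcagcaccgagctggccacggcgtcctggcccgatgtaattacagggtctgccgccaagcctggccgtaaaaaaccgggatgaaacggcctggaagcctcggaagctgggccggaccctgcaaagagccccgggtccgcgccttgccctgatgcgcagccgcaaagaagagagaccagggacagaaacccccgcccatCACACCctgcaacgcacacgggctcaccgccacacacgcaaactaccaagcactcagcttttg
Efna3: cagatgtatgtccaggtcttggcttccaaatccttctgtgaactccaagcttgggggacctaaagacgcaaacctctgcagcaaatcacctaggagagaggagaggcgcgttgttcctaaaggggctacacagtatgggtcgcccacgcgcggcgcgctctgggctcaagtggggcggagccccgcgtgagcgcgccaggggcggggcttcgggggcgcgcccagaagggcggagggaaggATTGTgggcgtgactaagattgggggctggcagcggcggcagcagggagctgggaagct
Efna4: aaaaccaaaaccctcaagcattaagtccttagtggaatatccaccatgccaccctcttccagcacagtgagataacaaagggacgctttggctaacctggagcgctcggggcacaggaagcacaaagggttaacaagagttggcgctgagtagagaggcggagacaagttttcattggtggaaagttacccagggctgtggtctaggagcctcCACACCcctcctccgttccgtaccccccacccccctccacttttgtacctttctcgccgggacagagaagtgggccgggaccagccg

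Efna5, another lipid-anchored ligand, was at 1.95, 2.21 and 2.09 TPM in mESC, 12, 12.7 and 13.5 in T+, 15.5, 16.3 and 17.7 in SOX17+/T+ and 13.6, 12.3 and 13.9 in SOX17+. The double-positive libraries lay above both single-positive groups, which overlapped. It rose by 2.50 ± 0.07 (adjusted p = 1.1e-12) in SOX17+/T+ against mESC. Efna2 moved little, at 12.6, 12.1 and 11.4 TPM in mESC, 10.9, 9.79 and 9.57 in T+, 10.3, 10.2 and 11.4 in SOX17+/T+ and 13, 12.3 and 13.3 in SOX17+. It was called lower in T+ than in mESC, -0.23 ± 0.07 (adjusted p = 0.005), and that call was lost under quantile normalization (-0.10, adjusted p = 0.15) and median-of-ratios scaling (-0.10, 0.13), while SOX17+ against T+ gave 0.32 ± 0.07 (adjusted p = 0.0011).

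Ephrin-B3 showed the widest spread of the transmembrane ligands. Efnb3 was at 1.72, 1.5 and 1.63 TPM in mESC, 60.2, 64.2 and 62.1 in T+, 31.9, 35 and 36.5 in SOX17+/T+ and 18.5, 18.9 and 19 in SOX17+. The groups did not overlap, and the order was T+, SOX17+/T+, SOX17+ and mESC. It rose by 4.59 ± 0.06 (adjusted p = 9.0e-16) in T+ against mESC and changed by -0.83 ± 0.06 (adjusted p = 2.6e-07) and -0.84 ± 0.06 (adjusted p = 2.3e-07) in the steps from T+ to SOX17+/T+ and from there to SOX17+. Efnb1, a ligand known for setting cell boundaries, was at 10.8, 10.8 and 10.2 TPM in mESC, 41.4, 46.9 and 47.1 in T+, 48.6, 51.3 and 51.9 in SOX17+/T+ and 43.1, 41.9 and 39.9 in SOX17+, so that the double-positive libraries lay above the other sorted ones. It rose by 1.99 ± 0.06 (adjusted p = 1.3e-12) in T+ against mESC. Efnb2, the ligand of Ephb4 in arteries, stood at 13.8 to 15 TPM in mESC, 21 to 27 in T+, 19.4 to 23.1 in SOX17+/T+ and 15.3 to 16.7 in SOX17+, and was called lower in SOX17+ than in T+, -0.54 ± 0.08 (adjusted p = 0.00012).

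On the receptor side, Epha2, a receptor of ephrin-A ligands abundant in stem cells and epithelia, was the EphA gene with the highest level in mESC. It was at 91.3, 89.7 and 95.1 TPM in mESC, 8.88, 7.74 and 8.43 in T+, 12.7, 11.9 and 10.5 in SOX17+/T+ and 9.23, 7.22 and 7.73 in SOX17+. The mESC libraries lay far above the rest, and SOX17+/T+ lay above T+ and SOX17+. It fell by 3.32 ± 0.09 in T+, 2.88 ± 0.09 in SOX17+/T+ and 3.37 ± 0.09 in SOX17+ on the log2 scale (adjusted p = 5.0e-13, 2.0e-12 and 4.1e-13). Its share of the EphA sum went from 79.6% in mESC to 17.5%, 22.4% and 13.4%. Epha4, which binds ephrins of both types, held 13.3% in mESC and 50.4%, 49% and 55.8% in the sorted groups.

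Epha4 was at 15.5, 15.7 and 15 TPM in mESC, 24.9, 22.6 and 24.8 in T+, 25.2, 24.7 and 26.5 in SOX17+/T+ and 33.6, 32.1 and 34.6 in SOX17+. SOX17+ lay above the other groups and was called higher than T+ by 0.46 ± 0.05 (adjusted p = 6.1e-06). Epha1 was at 5.14, 4.33 and 4.67 TPM in mESC, 10.2, 8.13 and 8.27 in T+, 10.7, 9.36 and 9.45 in SOX17+/T+ and 16.7, 15.1 and 16.7 in SOX17+ and rose by 1.59 ± 0.09 (adjusted p = 1.3e-09) in SOX17+ against mESC and 0.80 ± 0.09 (adjusted p = 5.8e-06) against T+. Epha1 overlaps 1727 bases of Zyx on the opposite strand, which was at 133.0 to 157.7 TPM in mESC, 66.5 to 77.3 in T+ and 57.6 to 59.2 in SOX17+, and the sources used here do not state a strand setting for the counting, so the level of Epha1 is uncertain. Epha7 was at 1.85, 1.54 and 1.31 TPM in mESC, 5.94, 6.33 and 6.06 in T+, 4.75, 4.44 and 5.36 in SOX17+/T+ and 2.15, 2.16 and 2.35 in SOX17+ and changed by 1.47 ± 0.09 (adjusted p = 2.3e-09) in T+ against mESC and -1.14 ± 0.09 (adjusted p = 1.5e-07) in SOX17+ against T+. Epha3 stood at 1.23 to 1.56 TPM in mESC and at 0.0991 TPM or less in each sorted library.

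All 5 EphB receptors were called higher in each sorted group than in mESC. Ephb4, the receptor of ephrin-B2 in veins, was the most abundant of them, with 18.7 ± 0.857 TPM in mESC and 54.4 ± 0.656 in T+ (SD, n = 3), and rose by 1.50 ± 0.05 (adjusted p = 7.3e-12). Ephb2 went from 11.8 ± 0.808 to 34.5 ± 2.37 in SOX17+/T+ and Ephb3 from 10.9 ± 0.571 to 25.4 ± 2.23. Ephb1 was at 0.122 to 0.212 TPM in mESC and at 2.07 to 2.24 TPM in T+.

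Ephb6, whose kinase domain is inactive, was the EphB receptor that differed most between SOX17+ and T+. It was at 1.05, 1.45 and 1.29 TPM in mESC, 5.76, 5.34 and 5.19 in T+, 7.39, 6.57 and 6.56 in SOX17+/T+ and 15.2, 13.1 and 13 in SOX17+, with no overlap between groups. SOX17+ exceeded T+ by 1.20 ± 0.09 (adjusted p = 7.9e-08) and SOX17+/T+ by 0.91 ± 0.09 (adjusted p = 3.4e-06), the largest rise of a tested member in each comparison. Some falls were larger, such as Nrp2 by -1.98 against T+ and Slit2 by -1.64 against SOX17+/T+. In the same comparison with T+, Ephb2 was also called higher, 0.22 ± 0.07 (adjusted p = 0.022). That call was lost without T+ replicate 2 (0.097) or SOX17+ replicate 1 (0.1), and with no filter on low values (0.056). Ephb1 changed by -0.60 ± 0.07 (adjusted p = 1.3e-05), and Ephb3 and Ephb4 were not called at -0.04 ± 0.07 and -0.09 ± 0.05.

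**Figure D3:**
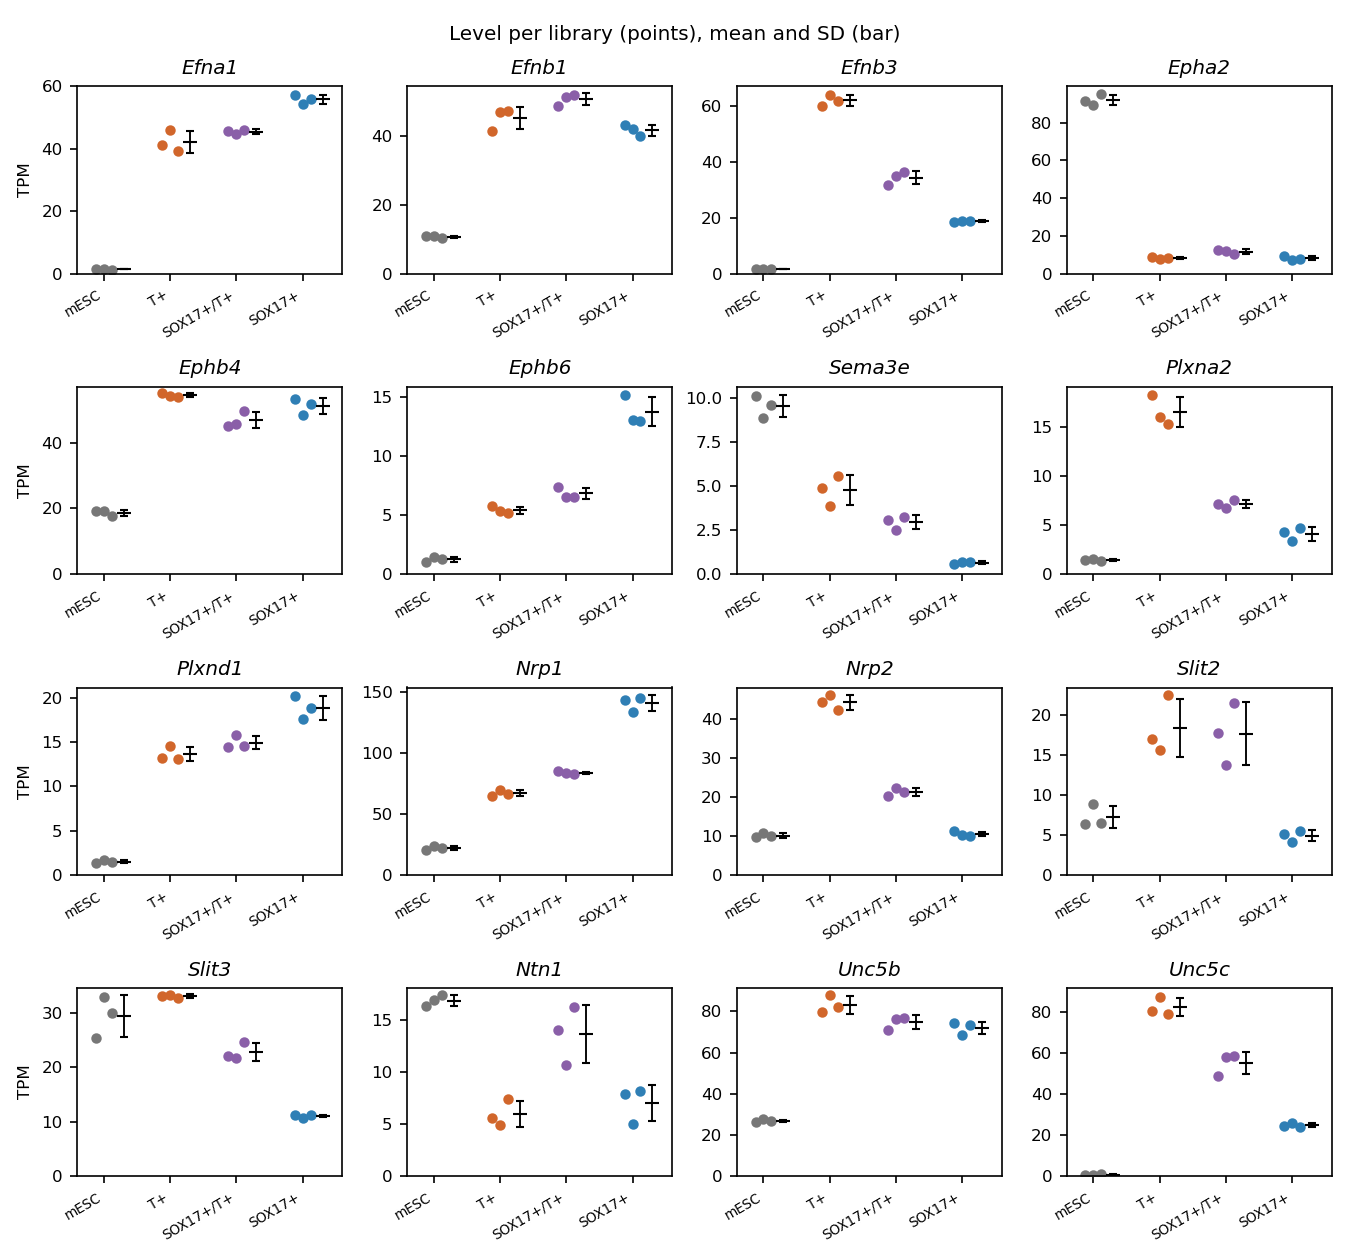
TPM of 16 guidance genes in each library (points) with the group mean and SD (bars), on linear axes that start at 0. Unc5c, Efnb3 and Plxna2 peak in T+, Nrp1 and Ephb6 in SOX17+, and Nrp2 in SOX17+ is near the level of mESC.

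Sema3e is the secreted class 3 ligand that binds Plxnd1 without a neuropilin. It decreased in the order mESC, T+, SOX17+/T+ and SOX17+. It was at 10.1, 8.88 and 9.62 TPM in mESC, 4.9, 3.86 and 5.57 in T+, 3.07, 2.54 and 3.28 in SOX17+/T+ and 0.565, 0.673 and 0.716 in SOX17+, and no groups overlapped. SOX17+ differed from mESC by -2.67 ± 0.11 (adjusted p = 4.8e-11) and from T+ by -1.80 ± 0.11 (adjusted p = 1.7e-08). Its receptor gene Plxnd1 went the other way, at 1.36, 1.7 and 1.51 TPM in mESC, 13.3, 14.5 and 13 in T+, 14.5, 15.8 and 14.6 in SOX17+/T+ and 20.2, 17.6 and 18.8 in SOX17+, with 2.98 ± 0.07 (adjusted p = 2.9e-13) in SOX17+ against mESC and 0.44 ± 0.07 (adjusted p = 0.00018) against T+.

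Sema3a, the classical repulsive ligand of Nrp1, was at 6.3, 6.84 and 6.15 TPM in mESC, 2.03, 1.65 and 2.94 in T+, 4.89, 4.78 and 5.41 in SOX17+/T+ and 4.34, 3.14 and 4.84 in SOX17+. T+ was lowest, by -1.23 ± 0.14 (adjusted p = 2.6e-06) against mESC, and both groups with SOX17 lay above it, SOX17+ by 0.68 ± 0.14 (adjusted p = 0.0013). Sema3f, which binds Nrp2, was at 7.01, 9.39 and 8.43 TPM in mESC, 12.5, 13.5 and 13.7 in T+, 14.9, 12.8 and 17 in SOX17+/T+ and 19.6, 16.1 and 18.1 in SOX17+ and rose by 1.03 ± 0.11 (adjusted p = 9.4e-07) in SOX17+ against mESC and 0.41 ± 0.11 (adjusted p = 0.0065) against T+. Sema3b rose to 4.40 to 5.20 TPM in SOX17+/T+ from 1.28 to 1.77 in mESC. Sema3c fell from 3.96 to 4.5 TPM in mESC to 0.386 to 1.41 in the sorted libraries.

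The class 4 semaphorins, which span the membrane, split by direction. Sema4c, a ligand of plexin B2, was at 2.64, 3.39 and 3.46 TPM in mESC, 26.7, 24.2 and 27.7 in T+, 21.8, 20.6 and 23.6 in SOX17+/T+ and 17.5, 15.9 and 19.7 in SOX17+, without overlap of groups. It rose by 2.71 ± 0.09 (adjusted p = 9.8e-12) in T+ against mESC and changed by -0.54 ± 0.09 (adjusted p = 0.0003) in SOX17+ against T+. Sema4g rose too, from 2.70 to 2.75 TPM in mESC to 6.94 to 9.80 in the sorted libraries.

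Sema4b, Sema4d and Sema4a had their highest levels in mESC, their lowest in T+ and intermediate ones in SOX17+. Sema4b was at 35.5, 34.9 and 37.2 TPM in mESC, 9.51, 11.6 and 11.7 in T+, 12.4, 14.3 and 14.5 in SOX17+/T+ and 14.4, 15.8 and 17.3 in SOX17+. Sema4d, the ligand of plexin B1, was at 18.9, 19 and 19.2 TPM in mESC, 5.63, 5.5 and 5.52 in T+, 7.97, 7.67 and 7.68 in SOX17+/T+ and 11.8, 9.97 and 10.8 in SOX17+. Sema4a was at 6.46, 5.99 and 6.29 TPM in mESC, 1.37, 1.17 and 1.45 in T+, 1.79, 1.93 and 2.04 in SOX17+/T+ and 4.31, 3.61 and 3.78 in SOX17+, and neither it nor Sema4d had overlapping groups. T+ differed from mESC by -1.63 ± 0.09 (adjusted p = 7.3e-10), -1.61 ± 0.06 (adjusted p = 1.8e-11) and -1.64 ± 0.08 (adjusted p = 2.6e-10) for the 3 genes. SOX17+ exceeded T+ by 0.50 ± 0.09 (adjusted p = 0.00029), 0.85 ± 0.06 (adjusted p = 6.5e-08) and 1.07 ± 0.08 (adjusted p = 1.1e-07). Sema4f, at 2.09 to 2.49 TPM in mESC, was at 0.699 TPM or less in each sorted library. Sema4b thus gave up its place as the most abundant class 4 gene, from 51.7% of the class sum in mESC to 20.7% in T+, where Sema4c held 49.5%.

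Class 5 and 6 members are membrane proteins as well. Sema5a was at 1.38, 1.54 and 1.45 TPM in mESC, 10.9, 10.2 and 10.3 in T+, 10.9, 10.3 and 11.8 in SOX17+/T+ and 12.4, 10.2 and 10.6 in SOX17+ and rose by 2.22 ± 0.08 (adjusted p = 8.8e-12), 2.29 ± 0.08 (adjusted p = 6.6e-12) and 2.29 ± 0.08 (adjusted p = 6.1e-12) in the 3 sorted groups, which overlapped. Sema5b, its paralog, fell from 3.67 to 4.33 TPM in mESC to 0.725 to 1.49 in the sorted libraries. Sema6a, a ligand of plexins A2 and A4, was at 1.14, 1.22 and 1.56 TPM in mESC, 15.1, 12.9 and 16.3 in T+, 9.94, 8.75 and 11.4 in SOX17+/T+ and 14.3, 10.6 and 12.5 in SOX17+ and rose by 2.77 ± 0.12 (adjusted p = 9.3e-11) in T+ against mESC, and was lower in SOX17+/T+ than in T+ by -0.52 ± 0.12 (adjusted p = 0.0062). Sema6b, Sema6c and Sema6d rose by less, with 0.36 ± 0.08, 0.67 ± 0.10 and 0.97 ± 0.10 in T+ against mESC.

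Sema7a, a lipid-anchored semaphorin that binds plexin C1 and integrins, was at 4.99, 5.05 and 4.63 TPM in mESC, 6.61, 6.45 and 6.68 in T+, 3.61, 3.65 and 3.67 in SOX17+/T+ and 2.71, 2.03 and 2.93 in SOX17+. The groups did not overlap, and T+ lay above mESC while SOX17+/T+ and SOX17+ lay below it, with 0.36 ± 0.09 (adjusted p = 0.0017) and -0.73 ± 0.09 (adjusted p = 3.3e-06) for T+ and SOX17+ against mESC. For Sema7a in SOX17+/T+ against mESC the value was -0.34 (adjusted p = 0.0025). That call was lost under quantile normalization (-0.10, adjusted p = 0.26). Plxnc1, its receptor, was at 0.639, 0.487 and 0.518 TPM in mESC, 0.232, 0.186 and 0.271 in T+, 0.404, 0.417 and 0.493 in SOX17+/T+ and 1.09, 1.28 and 1.07 in SOX17+, lowest in T+ and highest in SOX17+, by 0.80 ± 0.07 (adjusted p = 3.8e-07) between these. Under quantile normalization T+ minus mESC for Plxnc1 became 0.13 (adjusted p = 0.096) in place of -0.33 ± 0.07.

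Plexins transmit the semaphorin signal. Plxna2 was at 1.48, 1.53 and 1.35 TPM in mESC, 18.2, 16 and 15.3 in T+, 7.16, 6.7 and 7.51 in SOX17+/T+ and 4.3, 3.36 and 4.65 in SOX17+, without overlap of groups. It rose by 2.83 ± 0.10 (adjusted p = 8.3e-12) in T+ against mESC and was lower in SOX17+/T+ than in T+ by -1.10 ± 0.10 (adjusted p = 2.7e-06) and in SOX17+ than in SOX17+/T+ by -0.68 ± 0.10 (adjusted p = 0.00012). Plxna1, the most abundant plexin A in each group, was at 38.8, 39.3 and 37.6 TPM in mESC, 29.2, 30.9 and 29.3 in T+, 26.9, 29.2 and 30.5 in SOX17+/T+ and 26.8, 22.7 and 25.3 in SOX17+ and changed by -0.36 ± 0.06 (adjusted p = 0.00011) in T+ against mESC, so that its share of the plexin A sum was 91.0% in mESC and 56.9% in T+.

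Plxna3 stood at 1.88 to 2.18 TPM in mESC and 4.72 to 5.84 in the sorted libraries. Plxnb1 was 4.85 ± 0.178 TPM in mESC and 13.8 ± 1.37 in SOX17+ (SD, n = 3) and exceeded T+ there by 0.33 ± 0.07 (adjusted p = 0.0015). Plxnb2 was 35 ± 2.47 in mESC, 60.8 ± 3.04 in T+ and 47.5 ± 2.45 in SOX17+, with -0.35 ± 0.06 (adjusted p = 0.0003) between the last 2. Plxna4 did not pass 1.40 TPM in any library.

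The 2 neuropilins, co-receptors of class 3 semaphorins and of VEGF ligands, moved in opposite directions between the sorted groups. Nrp1 was at 20.6, 24.1 and 21.7 TPM in mESC, 64.9, 69.8 and 66.3 in T+, 84.6, 83.4 and 82.4 in SOX17+/T+ and 143, 133 and 145 in SOX17+. The 4 groups did not overlap and rose in the order mESC, T+, SOX17+/T+ and SOX17+. Nrp2 was at 9.71, 10.8 and 9.92 TPM in mESC, 44.4, 46.3 and 42.4 in T+, 20.2, 22.2 and 21.3 in SOX17+/T+ and 11.2, 10.4 and 10.01 in SOX17+, highest in T+, with SOX17+ and mESC overlapping. In SOX17+ against T+, Nrp1 was higher by 1.06 ± 0.05 (adjusted p = 3.0e-09) and Nrp2 changed by -1.98 ± 0.06 (adjusted p = 3.0e-11). Against mESC, Nrp2 rose by 2.02 ± 0.06 (adjusted p = 2.2e-12) in T+, while SOX17+ gave 0.05 ± 0.06 (adjusted p = 0.45). Nrp1 held 68.5% of the neuropilin TPM in mESC, 60.2% in T+, 79.7% in SOX17+/T+ and 93.0% in SOX17+.

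The RefSeq promoter windows of the neuropilins are shown because the pair moved in opposite directions between the T+ and SOX17+ sorts. The Nrp2 window (chr1:62703067-62703366, plus strand) holds GGTGTG and CACACC, set in capitals, as an inverted pair 1 base apart at -239 and -232 from the start site. The Nrp1 window (chr8:128358823-128359122, plus strand) holds neither of the 2 motifs, and its start site lies 469 bases from the gene start in the table. A match is a stretch of letters, and binding was not measured.
Nrp1: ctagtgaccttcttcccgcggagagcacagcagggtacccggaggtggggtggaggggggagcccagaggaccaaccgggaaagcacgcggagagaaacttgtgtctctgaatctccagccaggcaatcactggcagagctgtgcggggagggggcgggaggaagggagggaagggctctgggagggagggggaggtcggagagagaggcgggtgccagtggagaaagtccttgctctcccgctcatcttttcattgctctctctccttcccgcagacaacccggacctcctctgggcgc
Nrp2: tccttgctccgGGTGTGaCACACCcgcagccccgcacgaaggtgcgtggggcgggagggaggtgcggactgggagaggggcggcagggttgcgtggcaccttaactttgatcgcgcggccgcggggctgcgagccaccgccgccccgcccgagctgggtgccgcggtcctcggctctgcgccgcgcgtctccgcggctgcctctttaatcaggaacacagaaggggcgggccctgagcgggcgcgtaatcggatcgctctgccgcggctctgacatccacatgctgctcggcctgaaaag

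Of the 68 members, 58 had a RefSeq window, 74 in all. Either strand of the T-box letters occurred in 17 of the 74 (23%) and in 19% of the 32851 windows of the table, and of the SOX letters in 14 (18.9%) against 31%. The members' windows held a median of 19.5 CpG against 7 over the table. Those of the members called lower in both steps from T+ to SOX17+ (10 windows of 8 genes) had a median of 26 CpG, T-box letters in 2 and SOX letters in 2. Those of the members called higher in both steps (10 windows of 5 genes) had a median of 6 CpG, with T-box letters in 3 and SOX letters in 3. Most of these windows are alternative start sites of Sema4a and Sema4d, with 2 to 14 CpG each, and all of the T-box letters lie in them. The windows of Ephb6, Nrp1 and Plxnc1 held 34, 14 and 30 CpG, so the median reflects mainly Sema4a and Sema4d. These shares carry no test.

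The Slits, secreted ligands of Robo receptors, were all lower in SOX17+ than in T+. Slit3 was at 25.5, 33 and 29.97 TPM in mESC, 33.3, 33.4 and 32.8 in T+, 22.1, 21.7 and 24.7 in SOX17+/T+ and 11.1, 10.7 and 11.2 in SOX17+. Slit2 was at 6.35, 8.83 and 6.51 TPM in mESC, 17, 15.7 and 22.5 in T+, 17.7, 13.7 and 21.5 in SOX17+/T+ and 5.09, 4.14 and 5.48 in SOX17+, and Slit1 at 0.244, 0.312 and 0.284 TPM in mESC, 4.89, 4.6 and 5.12 in T+, 6.48, 5.62 and 7.83 in SOX17+/T+ and 2.45, 1.59 and 2.02 in SOX17+. SOX17+ lay below both other sorted groups for each gene, and below mESC for Slit2 and Slit3. For Slit2 the call against mESC, -0.47 ± 0.18 (adjusted p = 0.025), was lost without mESC replicate 2 (0.1) or SOX17+ replicate 2 (0.096) and under quantile normalization (0.11) and median-of-ratios scaling (0.088). That call was also lost with no filter on low values (0.052). The changes in SOX17+ against T+ were -1.51 ± 0.08 (adjusted p = 3.6e-09) for Slit3, -1.71 ± 0.18 (adjusted p = 5.9e-06) for Slit2 and -0.97 ± 0.12 (adjusted p = 1.1e-05) for Slit1. Against mESC, Slit1 and Slit2 rose by 2.20 ± 0.12 (adjusted p = 6.7e-10) and 1.23 ± 0.18 (adjusted p = 3.4e-05) in T+. The Slit sum was 37 ± 5.06 TPM in mESC, 56.4 ± 3.53 in T+, 47.1 ± 6.5 in SOX17+/T+ and 18 ± 1.29 in SOX17+.

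The Robo receptors did not follow the Slits. Robo1 was at 9.1, 8.73 and 8.82 TPM in mESC, 10.7, 10.5 and 8.99 in T+, 7.77, 7.17 and 7.43 in SOX17+/T+ and 13, 8.93 and 10.8 in SOX17+, and Robo2 at 0.341, 0.298 and 0.322 TPM in mESC, 8.19, 7.77 and 5.84 in T+, 3.51, 4.37 and 2.55 in SOX17+/T+ and 5.5, 6.28 and 4.62 in SOX17+. For both genes the double-positive libraries lay below those of T+ and SOX17+, which overlapped. Robo2 rose by 2.63 ± 0.15 (adjusted p = 1.5e-09) in T+ against mESC and was lower in SOX17+/T+ than in T+ by -0.89 ± 0.15 (adjusted p = 0.00062). Robo4, a receptor known from endothelium, went from 1.92 to 2.33 TPM in mESC to 0.169 TPM or less in the sorted libraries. SOX17+ against T+ gave 0.09 ± 0.10 for Robo1, -0.35 ± 0.15 for Robo2 and -0.04 ± 0.07 for Robo4, none of them called.

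Netrin ligands were few. Ntn1, the secreted ligand of Dcc and Unc5 receptors, was at 16.3, 16.9 and 17.4 TPM in mESC, 5.52, 4.92 and 7.37 in T+, 14.1, 10.7 and 16.2 in SOX17+/T+ and 7.89, 4.98 and 8.14 in SOX17+. T+ and SOX17+ overlapped at the lowest level, and the double-positive libraries lay above both. It changed by -1.38 ± 0.18 (adjusted p = 1.8e-05) in T+ against mESC, and SOX17+/T+ exceeded T+ by 1.08 ± 0.18 (adjusted p = 0.001) and SOX17+ by 0.88 ± 0.18 (adjusted p = 0.0027). Ntn4, a netrin of basement membranes, stood at 0.257 to 1.33 TPM over all libraries.

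Among the receptors, Unc5c showed the largest rise of any member. It was at 0.391, 0.566 and 0.639 TPM in mESC, 80.6, 87.2 and 79.2 in T+, 48.8, 58.1 and 58.5 in SOX17+/T+ and 24.4, 25.8 and 24 in SOX17+, and the groups did not overlap. The log2 fold change against mESC was 5.77 ± 0.08 (adjusted p = 1.8e-15) in T+, 5.19 ± 0.08 (adjusted p = 4.0e-15) in SOX17+/T+ and 4.07 ± 0.08 (adjusted p = 3.4e-14) in SOX17+. Since its mESC level lies under 1 TPM, these values understate the fold of TPM itself. From T+ to SOX17+ it changed by -1.69 ± 0.08 (adjusted p = 1.3e-09). Unc5b, a receptor known from vessels, was at 26.1, 27.4 and 26.7 TPM in mESC, 79.7, 88.2 and 81.9 in T+, 70.8, 76.4 and 76.9 in SOX17+/T+ and 74.1, 68.4 and 73.2 in SOX17+ and rose by 1.60 ± 0.05 (adjusted p = 3.0e-12) in T+ against mESC. Unc5c made up 1.88% of the netrin receptor sum in mESC, 49.4% in T+, 42.1% in SOX17+/T+ and 25.5% in SOX17+. Dcc, the attractive receptor, stayed at or below 0.147 TPM.

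Between the single-positive groups, guidance genes went both ways. In SOX17+ against T+, 17 of the 56 tested members were called higher and 22 lower, where 25.4% and 29% of all tested genes were called in these directions (members 30.4% and 39.3%). The median log2 fold change was -0.10 over the members and -0.03 over all tested genes. The largest differences were falls: Nrp2, Sema3e, Plxna2, Slit2, Unc5c, Efnb3 and Slit3 each fell by more than 1.50 on the log2 scale, and the largest rise was that of Ephb6. The ephrin-A, EphA, EphB, neuropilin, plexin B and class 3 and 4 semaphorin families each held members of both directions. In the Slits, in ephrin-B and in the tested netrins and Unc5 receptors no member was called higher, and in class 3 Sema3e alone was called lower, against 4 called higher. The call of Sema3c among these 4, 0.35 ± 0.11 (adjusted p = 0.017), was lost without T+ replicate 1 (0.073) or 2 (0.083) or SOX17+ replicate 3 (0.069). It was also lost with only the groups compared (0.0504).

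**Figure D4:**
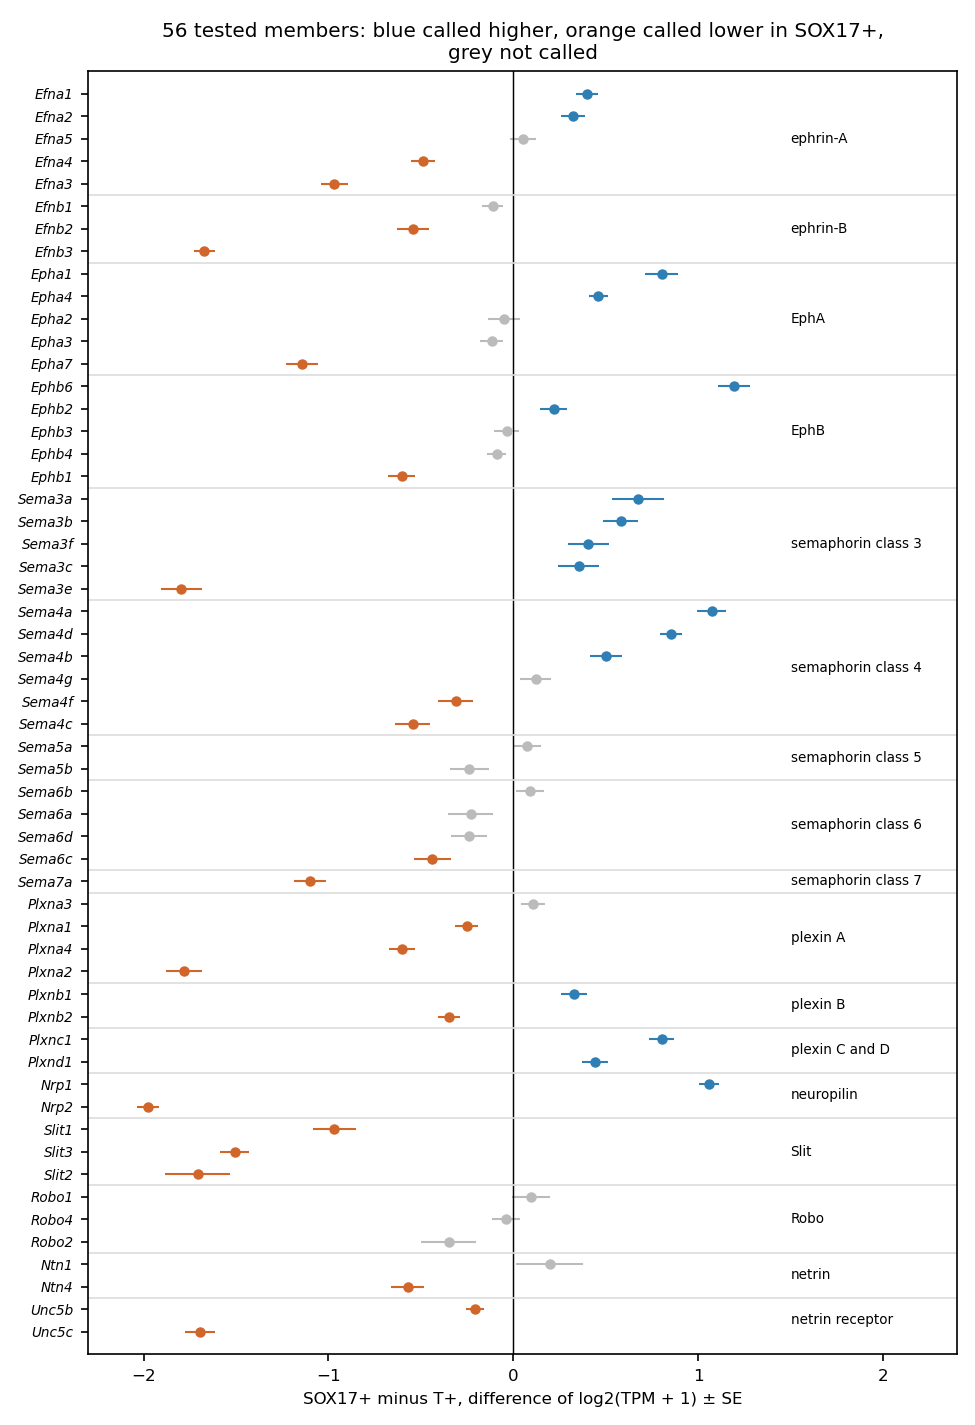
Difference of log2(TPM + 1) between SOX17+ and T+ (x axis; points, estimate; bars, SE) for the 56 tested members, grouped by family. Blue points were called higher in SOX17+ (17), orange lower (22), and grey points were not called. Nrp1 and Nrp2 lie on opposite sides, and all 3 Slits lie to the left.

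The double-positive libraries were compared with each single-positive group. Against T+, 17 members were called higher and 15 lower in SOX17+/T+ (30.4% and 26.8% of those tested), where 12.6% and 15.8% of all genes were. In SOX17+ against SOX17+/T+, 14 were called higher and 26 lower (25.0% and 46.4%), where 19.8% and 16.8% of all genes were. These comparisons share the double-positive libraries. They are called steps in this text, which implies no order in time. Fewer of the calls from the first comparison held in each of the 19 alternative settings, 21 of 32, against 33 of 40 for the second and 36 of 39 for SOX17+ against T+.

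Across both steps, 10 members (17.9% of those tested) were called lower in each, a pattern of 7.6% of all tested genes: Efna3, Efnb3, Epha7, Nrp2, Plxna2, Plxna4, Sema3e, Sema7a, Slit3 and Unc5c. Another 5 (8.93%) were called higher in each, a pattern of 8.13%: Ephb6, Nrp1, Plxnc1, Sema4a and Sema4d. Of these 15, Efnb3, Nrp2, Plxna2, Sema3e, Sema7a, Slit3, Unc5c, Nrp1, Sema4a and Sema4d kept the pattern in all 19 settings. Plxna4 reached 1 TPM only in T+ and Plxnc1 only in SOX17+, so each entered the test through the group where it is highest. With 1 library left out at a time, the first count ran from 8 to 11 and the second from 4 to 5.

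Members beyond both single-positive groups were few in number. SOX17+/T+ was called above both for 6 (10.7% of those tested), Efna5, Efnb1, Epha2, Ephb3, Ntn1 and Slit1, a pattern of 0.733% of all tested genes. It was called below both for 2 (3.57%), Robo1 and Robo2, a pattern of 0.882%. Epha2, Efna5 and Ntn1 kept the pattern in all 19 settings, with SOX17+/T+ above T+ by 0.44 ± 0.09 (adjusted p = 0.0019), 0.35 ± 0.07 (adjusted p = 0.0024) and, for Ntn1, by the value given with the netrins. The count above both was 3 without T+ replicate 1, which lost Efnb1, Ephb3 and Slit1, was 4 without T+ replicate 2, which lost Ephb3 and Slit1, and 4 without SOX17+/T+ replicate 3, which lost Efnb1, Ephb3 and Slit1 and added Sema6b. Efnb1 alone was lost without mESC replicate 1 or 2, SOX17+/T+ replicate 2 or SOX17+ replicate 2, and Slit1 alone without SOX17+/T+ replicate 1. Below both, Robo1 was lost without T+ replicate 1 or 2, and Robo2 without SOX17+/T+ replicate 3 or SOX17+ replicate 2. The count below both was 1 in the first 2 of these sets and 3 in the other two, where Ephb4 and Sema6a were added. With the replicate block, 7 were above both, with Sema6b added, and 3 below both, with Sema6a added. Under that setting 1.12% and 1.29% of all tested genes had these patterns.

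Set against the midpoint of T+ and SOX17+ on the log2 scale, the double-positive mean was called higher for 15 members and lower for 6 (26.8% and 10.7% of those tested), where 4.43% and 5.44% of all genes were. These 21 include the 8 members called beyond both groups. With the replicate block, 16 were called higher and 8 lower, where 993 and 1153 of all 16097 tested genes were. The number called in total fell from 21 to 13, 12 and 13 without SOX17+/T+ replicates 1, 2 and 3. Members called higher ranged from 8 to 14 and lower from 3 (without SOX17+/T+ replicate 2) to 10 (without SOX17+ replicate 2) over the 12 sets with 1 library left out. The 4 largest differences were those of Ntn1, 0.98 ± 0.16 (adjusted p = 0.0031), Slit1, 0.86 ± 0.10 (adjusted p = 0.00027), Slit2, 0.79 ± 0.15 (adjusted p = 0.0081), and Robo2, -0.72 ± 0.13 (adjusted p = 0.0043).

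**Figure D5:**
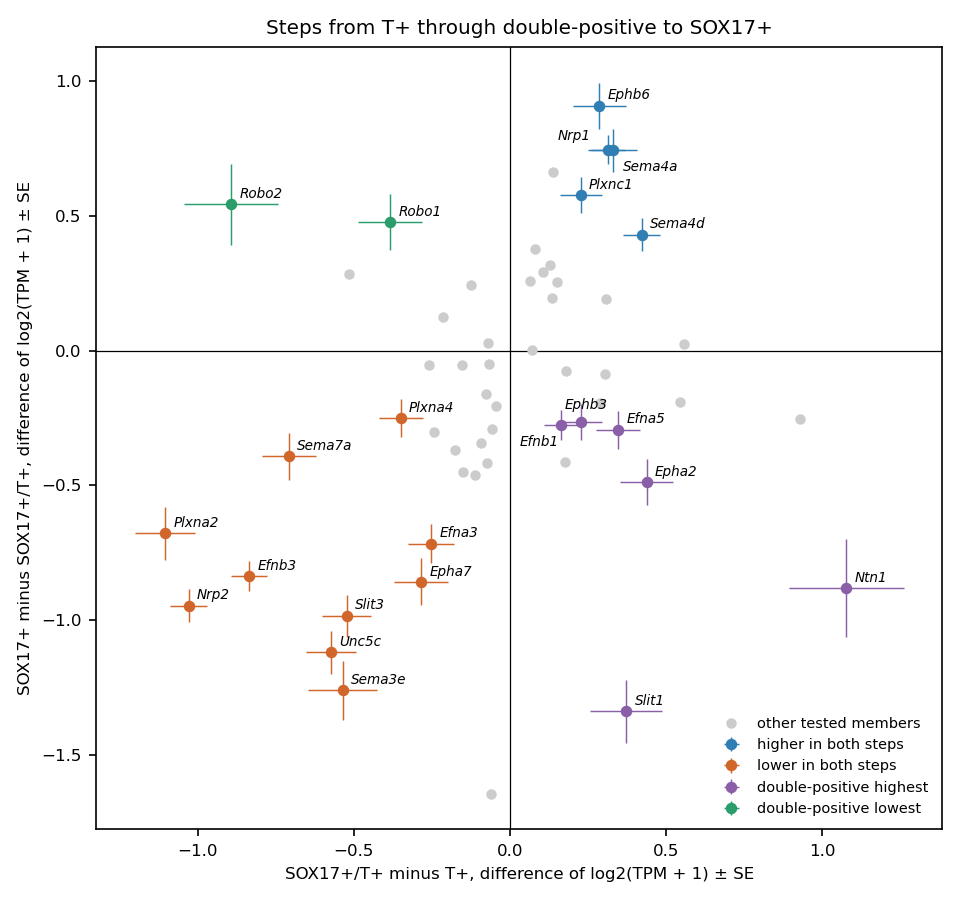
Change from T+ to SOX17+/T+ (x axis) against change from SOX17+/T+ to SOX17+ (y axis), both as differences of log2(TPM + 1) ± SE, for the 56 tested members. Colours mark members called in both steps. Nrp1, Sema4a, Sema4d, Ephb6 and Plxnc1 lie at upper right, Nrp2 and Unc5c among others at lower left, and Ntn1 at lower right. Both axes use the SOX17+/T+ libraries, so their slope is not a result.

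Other genes of these pathways were taken from a list of 79 adaptors, co-receptors and effectors, of which 78 were matched and 68 tested. In T+ against mESC 31 were called higher and 24 lower, where 34.5% and 49.5% of all tested genes were, in SOX17+/T+ 32 and 26 (34.9% and 50.3%), and in SOX17+ 28 and 32 (35.4% and 50%). Quantile normalization left 19 of the pathway list lower in SOX17+ than in mESC in place of 32. Over all 16097 tested genes it left 6519 lower in place of 8042. SOX17+ against T+ gave 24 higher and 34 lower, where 25.4% and 29% of all tested genes were called. SOX17+/T+ against T+ gave 11 and 16 (12.6% and 15.8%), and SOX17+ against SOX17+/T+ 15 and 23 (19.8% and 16.8%). The 16 ranged from 10, without T+ replicate 1 or SOX17+/T+ replicate 2, to 18 with 1 library left out. Flrt3, a membrane protein that binds Unc5 and Robo receptors, was at 5.89, 6.22 and 5.54 TPM in mESC, 10.7, 9.25 and 14.9 in T+, 38.6, 33.6 and 34.8 in SOX17+/T+ and 56, 49.9 and 57 in SOX17+, and the groups did not overlap. SOX17+ exceeded T+ by 2.15 ± 0.13 (adjusted p = 2.6e-08) there. Kdr, the VEGF receptor that partners Nrp1 and is also one of the 8 endothelial genes above, was at 0.573, 0.878 and 0.77 TPM in mESC, 26.6, 27.8 and 29.4 in T+, 21.9, 21.1 and 23.7 in SOX17+/T+ and 20.5, 19.3 and 16.1 in SOX17+ and rose by 4.06 ± 0.09 (adjusted p = 1.3e-13) in T+ against mESC. Rgma, a ligand of neogenin, went from 5.14 ± 0.474 TPM in mESC to 29 ± 3.78 in T+, a rise of 2.28 ± 0.11 (adjusted p = 2.6e-10).

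Dpysl5, of the CRMP family that relays semaphorin signals, rose by 2.53 ± 0.09 (adjusted p = 1.1e-11) in T+ against mESC, and its relatives Crmp1 and Dpysl3 changed by -2.68 ± 0.13 (adjusted p = 2.4e-10) and -3.21 ± 0.14 (adjusted p = 6.7e-10). Of the other relatives, Dpysl2 stood at 3.6 ± 0.155 TPM in mESC and 17.9 ± 2.15 in T+, and Dpysl4 at 3.62 ± 0.443 and 2.41 ± 0.206 (SD, n = 3). Flrt2, another ligand of Unc5 receptors, was at 36.9, 42.6 and 37.5 TPM in mESC, 2.25, 1.92 and 2.79 in T+, 2.08, 1.5 and 2.66 in SOX17+/T+ and 2.51, 2.27 and 2.5 in SOX17+ and changed by -3.60 ± 0.13 (adjusted p = 1.3e-11). Mical2, of the MICAL enzymes that act below plexins, changed by -3.13 ± 0.10 (adjusted p = 4.5e-12). Mical1 stood at 19.2 ± 0.719 TPM in mESC and 44.3 ± 0.752 in T+, and Mical3 at 18.7 ± 2.2 and 8.21 ± 0.308. Between the single-positive groups, Ablim3 and Srgap3, a Slit-Robo GTPase-activating protein, were higher in SOX17+ by 2.05 ± 0.07 (adjusted p = 1.0e-10) and 1.45 ± 0.07 (adjusted p = 2.1e-09). Trim67, L1cam, Ntng2 and Mical1 changed there by -1.57 ± 0.09 (adjusted p = 5.9e-09), -1.50 ± 0.10 (adjusted p = 5.1e-08), -1.48 ± 0.11 (adjusted p = 1.7e-07) and -1.10 ± 0.05 (adjusted p = 1.7e-09).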

How the data were processed

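Poly(A) RNA of 12 libraries, 3 in each of 4 groups, was measured by stranded paired-end RNA sequencing, per the labels' protocols. The deposited values are TPM that the authors made, and the submitters' processing notes name cutadapt, STAR, StringTie and the mm10 build (GRCm38). The sources used here do not give the annotation release, the strand setting or any filter, and the depth behind each value is unknown, so no counting error could be given.

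From these, 282 empty cells among 54480 rows were set to 0 and TPM was summed per gene identifier. Genes at or above 1 TPM in at least 3 of 12 libraries (16097) entered limma 3.58.1 in R 4.3.3 on log2(TPM + 1), with 1 mean per group, a mean-variance trend and robust moderation. Tests are 2-sided with Benjamini-Hochberg adjustment over all tested genes. Fold changes are differences of log2(TPM + 1) ± SE, which understate changes of low genes. The midpoint comparison set the SOX17+/T+ mean against the average of the T+ and SOX17+ means. The code was tested on simulated data.

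The members and gene lists were chosen with earlier results of these data known. Members described in full were, by rule, among the 8 largest called rises or the 8 largest called falls of a pairwise comparison with a mean of at least 5 TPM in the higher group. Other members are named for their family or their value, and that choice was made with values seen. Alternatives were another pseudocount, no filter, a 5 TPM filter, quantile normalization, median-of-ratios scaling, fits on only the groups compared, a replicate block and each library left out in turn.

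Same-numbered T+ and SOX17+/T+ libraries deviated together (correlations of 0.204, 0.149 and 0.242 over genes), a pairing that comes from the data. The main fit did not use it, so the SE, adjusted p and counts given without another setting are unpaired. Only the replicate block setting used the numbers, as a block across all 4 groups. Same-numbered correlations were positive in every other pair of groups too. They were 0.0463, 0.178 and 0.224 for SOX17+/T+ and SOX17+, and 0.0425, 0.049 and 0.00495 for mESC and SOX17+/T+.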

Additional observations from a re-analysis of the deposited data

Results flagged for a closer look

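Slit2, Sema7a and Plxnc1 were called in opposite directions against mESC in T+ and in SOX17+, and the difference between these was itself called in each case by limma. For Slit2 the log2 fold change was 1.23 in T+ and -0.473 in SOX17+, a difference of -1.71. For Sema7a it was 0.364 and -0.735, a difference of -1.10. For Plxnc1 it was -0.331 and 0.472, a difference of 0.803, at levels of 1.28 TPM or less in every library. Plxnc1 reached 1 TPM only in SOX17+ and entered the test through that group. The opposite directions were not firm for Slit2, whose SOX17+ call was lost in the settings named with the Slits. Nor were they for Plxnc1, whose T+ value became 0.129 under quantile normalization.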

How the results depend on the processing

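Of the 289 member calls, 246 kept their direction and side of the threshold in each of the 19 alternative settings in which they were tested, and 1 turned: T+ minus mESC for Plxnc1 became 0.129 under quantile normalization. With a 5 TPM filter, which tests fewer genes, 9, 9 and 11 members were called lower in T+, SOX17+/T+ and SOX17+ than in mESC, and 6 were lower in all 3. Of the 12124 genes tested there, 6195, 6238 and 6221 were called lower, and 45% were lower in all 3. Without a filter, 12 members were called against the midpoint, 8 of them higher. Of the 33055 genes tested there, 476 were called higher and 580 lower. With 1 library left out, the calls against the midpoint ranged from 12 to 21, the higher ones from 8 to 14 and the lower ones from 3 to 10. Of the pathway partners, 19 in place of 32 were called lower in SOX17+ than in mESC under quantile normalization. Over all tested genes it was 6519 in place of 8042. With 1 library left out, partners lower in SOX17+/T+ than in T+ ranged from 10 (without T+ replicate 1 or SOX17+/T+ replicate 2) to 18. The cause of these changes was not tested. Quantile normalization moved the share of higher calls against the midpoint from 44.9% to 55.9% of all called genes. With the replicate block, 17 members were called higher and 17 lower in SOX17+/T+ than in T+, where 2294 and 2908 of all 16097 tested genes were. In SOX17+ against T+ it gave 17 and 25, where 4261 and 4938 of all were called. In SOX17+ against SOX17+/T+ it gave 16 and 27, where 3457 and 3014 of all were called. The block ended none of the 289 calls. A pseudocount of 0.1 enlarged the changes of low genes such as Slit1, Sema4f, Robo2 and Robo4 by over 1.5 times. Levels near 1 TPM rest on an unknown number of reads.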
